A study of Homo sapiens with 15 samples.

Results

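The genes of the BCL2 family that set whether mitochondria release their apoptotic factors were followed through 3 fractions of PEO1, an established line of human ovarian cancer cells. Listed were 10 genes: BCL2, BCL2L1, MCL1, BCL2A1, BCL2L11, BID, BAX, BAK1, BBC3 and PMAIP1. All probe sets annotated to a single listed gene were taken, which gave 30 of the 54675 probe sets on the arrays and covered 9 genes of the 19775 that could be named. The only probe set that carries BBC3 is annotated to 3 genes, so BBC3 (PUMA) was not analysed here.

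Parental PEO1 cells grown in RPMI-1640 with serum were stained for the surface proteins CD90 and CD133 and sorted after dead cells had been marked with a dye. Cells with both proteins (CD90+/CD133+), with CD90 alone (CD90+/CD133-) and with neither (CD90-/CD133-) had 5 arrays per fraction, numbered as replicates 1 to 5 in the labels, although the series' design text speaks of triplicates. All are sorted populations of the parental line, no treatment is named for them, they differ by sort gate and not by a designed genetic change, and biological replicates are described for the CD90+/CD133- and CD90-/CD133- fractions only. For CD90+/CD133+ cells p-values therefore measure the spread between arrays, which may be technical. The methods compare those 2 fractions to ask how CD90+ stem-like cells differ from CD90- cells.

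Proteins of this family act at the outer mitochondrial membrane. BAX and BAK1 form pores in it, BCL-XL (BCL2L1), MCL-1, BCL-2 and BFL-1 (BCL2A1) hold them in check, and the BH3-only proteins BIM (BCL2L11), BID, NOXA (PMAIP1) and PUMA (BBC3) bind the guardians or activate the pore formers. NOXA binds MCL-1 with preference, and BCL-XL and MCL-1 are the guardians most often discussed in ovarian cancer cells. Much of the control lies in the proteins (splice forms, phosphorylation, cleavage of BID, fast turnover of MCL-1), which probe-set intensities do not report.

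Intensities are the authors' normalized linear values with those under 16 set to 16, and means are geometric. Each pair of fractions was fitted with limma over all probe sets above 16 on at least 1 array, with the replicate number as a block, and a probe set is called at a Benjamini-Hochberg adjusted p under 0.05 over all of them. THY1, which encodes CD90, lay between 728 and 2171 on CD90+/CD133+ arrays, between 795 and 1221 on CD90+/CD133- arrays and between 57.8 and 101.3 on CD90-/CD133- arrays. PROM1, which encodes CD133, read 429, 834, 1093, 796 and 1652 in CD90+/CD133+ cells and 23.8, 21.5, 68.2, 24.6 and 156 in CD90+/CD133- cells, where replicates 3 and 5 stood above the rest. It was at the floor on 3 of the 5 CD90-/CD133- arrays, with 44.1 and 24.7 on replicates 3 and 5. Median intensity was 29.4 to 32.4 on the 15 arrays. The GAPDH control, whose 3' and 5' probes differ more where RNA is less complete, had a log2 gap of 0.012 to 0.118 on CD90+/CD133+ arrays, 0.090 to 0.268 on CD90+/CD133- arrays and 0.023 to 0.093 on CD90-/CD133- arrays. The same gap of ACTB was wider, at 1.03 to 2.76 (mean 1.70), 1.82 to 3.31 (mean 2.46) and 1.31 to 2.17 (mean 1.84) in that order of fractions. COL3A1, LUM and POSTN (fibroblasts), PTPRC and LYZ (blood cells) and CDH5 (endothelium) were at the floor on all arrays. The other measured markers of these lists lay above it on most or all arrays. Among them were COL1A1 (82.3 to 163), PECAM1 (43.7 to 78.7) and CD14. On CD90+/CD133+, CD90+/CD133- and CD90-/CD133- arrays CD14 read 67.9 to 171, 92.3 to 148 and 43.4 to 71.5. It was called higher in both CD90+ fractions and sets the blood cell sums below apart. The summed intensity of 8 fibroblast markers was 275 to 335 on CD90+/CD133+, 256 to 289 on CD90+/CD133- and 348 to 413 on CD90-/CD133- arrays, and that of 4 blood cell markers 142 to 232, 159 to 217 and 111 to 135 in the same order. For 4 endothelial markers the sums were 124 to 151, 116 to 133.2 and 116 to 135. Of 10 ovarian epithelial markers, none was at the floor on all arrays and their summed intensity was 27378 to 39064 in CD90+/CD133+ cells, 29610 to 38770 in CD90+/CD133- cells and 42519 to 52170 in CD90-/CD133- cells. These sums follow few genes: KRT8 and KRT18 were called lower in both CD90+ fractions while EPCAM was called higher in both, and FAP, at 31.9 to 41.6 on CD90+/CD133+, 26.5 to 44.5 on CD90+/CD133- and 106 to 197 on CD90-/CD133- arrays, sets the fibroblast sums apart. The part of these markers in the results below was not tested. A lower value in a bulk fraction can mean fewer cells with the transcript or less of it per cell, and the arrays cannot tell these apart.

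By their brightest probe sets BCL2L11, BCL2L1 and the dim BCL2 were higher, and PMAIP1, BID and MCL1 lower, in CD90+/CD133- cells relative to CD90-/CD133- cells. In CD90+/CD133+ cells BCL2L11 and BCL2L1 were likewise higher and PMAIP1 and MCL1 lower, while BID depended on the probe set. MCL1 did so too, with 1 of its 6 probe sets called in CD90+/CD133- cells, a call lost without the replicate block. Without the block the brightest probe sets of BCL2 and PMAIP1 were also not called in CD90+/CD133- cells. That of MCL1 was then not called in CD90+/CD133+ cells either. Of the 30 probe sets, 10 were called higher and 6 lower in CD90+/CD133- against CD90-/CD133- cells, where 31.1% of all 39709 probe sets tested were called, 15.7% higher and 15.4% lower. In CD90+/CD133+ against CD90-/CD133- cells 10 were higher and 8 lower, where 33.9% of all were called, 15.3% higher and 18.5% lower. Between the CD90+ fractions 3 were called (1 higher and 2 lower in CD90+/CD133+ cells), where 4.49% of all were called, 1.3% higher and 3.19% lower. The fractions did not overlap for 1 probe set, where 3.72% of all did not.

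Probe sets of a gene share their transcript, so the counts are also given by gene. The members were chosen with earlier results of these data known. Setting their counts, by probe set or by gene, beside the share over all is therefore a description and no test. By the brightest probe set of each of the 9 genes, 3 were higher and 3 lower in CD90+/CD133- cells, against 36.1% of all genes called, 16.6% higher and 19.5% lower. In CD90+/CD133+ cells 2 were higher and 2 lower against 39.4% of all genes, 18.2% higher and 21.2% lower, a share near the background. With only bright probe sets fitted (mean intensity at least 64), 54.2% of all genes were called in CD90+/CD133- cells and 57.2% in CD90+/CD133+ cells. Of the 9 genes, BID alone was called between the CD90+ fractions (higher in CD90+/CD133+ cells), where 1.79% of all genes were higher and 2.01% lower. By the 1.5-fold ratio of group means that the methods use, 7 of the 30 probe sets passed in CD90+/CD133+ cells, where 13.9% of all did, 7 in CD90+/CD133- cells, where 14.7% of all did, and 1 between the CD90+ fractions, where 1.67% of all did. Both comparisons use the same CD90-/CD133- arrays. The median log2 fold change over the 30 probe sets was 0.07 in the comparison of CD90+/CD133- cells and 0.04 in that of CD90+/CD133+ cells, beside -0.0032 and -0.0053 over all probe sets tested, with called probe sets on both sides of 0. The fractions did not overlap for 9 of the 30 probe sets in CD90+/CD133+ cells, where 16.4% of all did not, and for 4 in CD90+/CD133- cells, where 15.7% of all did not. Without the replicate block 8 of the 30 were called in CD90+/CD133- cells, where 20.6% of all probe sets were, and 10 in CD90+/CD133+ cells, where 21.5% were.

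**Figure D1:**
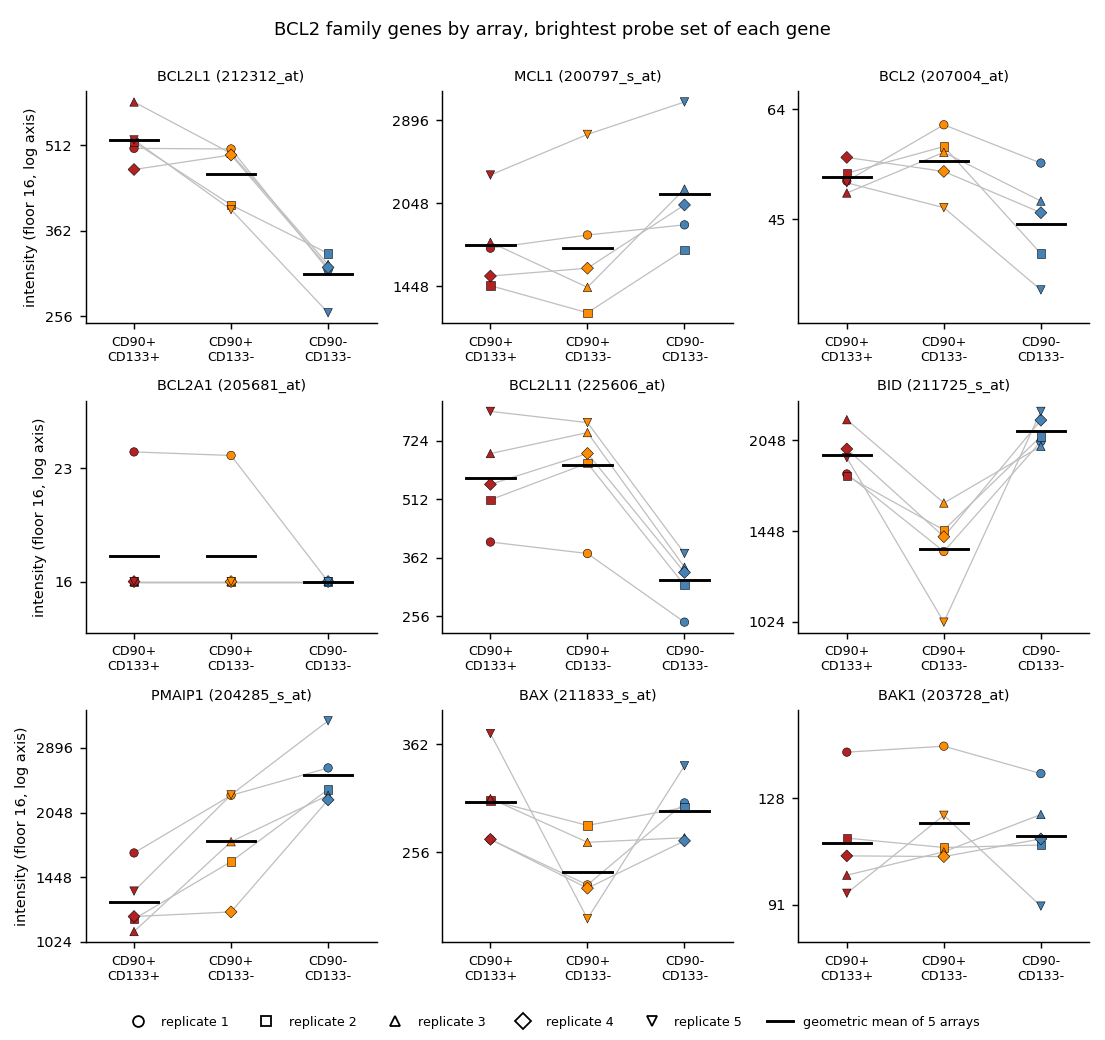
Intensity of the brightest probe set of each of the 9 measured genes (log axis, values under 16 set to 16) on each of the 15 arrays. The fractions run CD90+/CD133+, CD90+/CD133- and CD90-/CD133- from left to right, symbols stand for replicate numbers 1 to 5, grey lines join arrays of a number and bars are geometric means. BCL2L1 and BCL2L11 sit lower, and PMAIP1 and MCL1 higher, in CD90-/CD133- cells, and BID is lowest in CD90+/CD133- cells.

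Of the guardians, BCL2L1 was the one called with higher intensity in both CD90+ fractions. The gene (chromosome 20) encodes BCL-XL and, by splicing, a short pro-apoptotic form, and which form each probe set reads is not given in the sources used here. Its brightest probe set, 212312_at, read 506, 519, 611, 464 and 523 in CD90+/CD133+ cells for replicates 1 to 5. It read 505, 402, 495, 492 and 394 in CD90+/CD133- cells, and 309, 330.1, 316, 312 and 259 in CD90-/CD133- cells. Every CD90+ array lay above every CD90-/CD133- array. The geometric means were 522, 455 and 304 on CD90+/CD133+, CD90+/CD133- and CD90-/CD133- arrays, with SDs of 0.14, 0.18 and 0.13 (log2, n = 5 each).

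BCL2L1 in CD90+/CD133+ cells was thus 1.72-fold its CD90-/CD133- level (log2 fold change 0.78, SE 0.080, adjusted p = 0.00059). In CD90+/CD133- cells it was 1.5-fold higher (log2 fold change 0.58, SE 0.077, adjusted p = 0.00201). Both calls held in the fit without the block. The dimmer probe sets moved the same way. The probe sets 215037_s_at and 206665_s_at were called in both comparisons, with log2 fold changes of 0.64 and 0.73 in CD90+/CD133+ cells and 0.48 and 0.73 in CD90+/CD133- cells, and 231228_at was called in CD90+/CD133+ cells (0.61) but not in CD90+/CD133- cells (0.29, adjusted p = 0.135). All 4 probe sets of BCL2L1 had CD90+/CD133+ and CD90-/CD133- values that did not overlap. The call of 215037_s_at in CD90+/CD133- cells was lost without the block (adjusted p = 0.0612) and without replicate 2 or replicate 4. Between CD90+/CD133+ and CD90+/CD133- cells the 4 probe sets differed by 0.00 to 0.32 on the log2 scale, each with a positive sign, and none was called.

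In the promoter window of BCL2L1, as in those below, short motifs were looked up to show the letters near the start sites of genes whose intensity differed. RefSeq windows (GRCh38.p14, 250 bases before to 50 after each start) were found for 9 of the 10 listed genes, with 5 windows for BID, 2 for BCL2L1 and 1 for each of the others. Searched on both strands were GTAAACA, a core of sites bound by FOXO factors, and ACGTG and GCGTG, which carry the core of hypoxia response elements. Of these, ACGTG also lies within E-box letters (CACGTG), and GCGTG does not. Of all 35116 windows, 3.42% held GTAAACA, 21.4% held ACGTG and 36.5% held GCGTG, so a match to the shorter motifs is common. ACGTG was found in the windows of BAX and BBC3 and in 2 of the 5 of BID, GCGTG in 2 further windows of BID, and none of the motifs in those of BCL2, BCL2A1 and BAK1. The stretch shown (motif in capitals) holds the only match of BCL2L1, 64 bases upstream of 1 of its 2 starts, at chr20:31722916-31722944 on the minus strand.
BCL2L1: gagagccaagggGCGTGcaagagagaggg

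MCL1, on chromosome 1, encodes the short-lived guardian that NOXA binds. Its brightest probe set, 200797_s_at, read 1697, 1452, 1739, 1511 and 2303 in CD90+/CD133+ cells, 1793, 1296, 1441, 1561 and 2729 in CD90+/CD133- cells and 1871, 1686, 2172, 2033 and 3125 in CD90-/CD133- cells for replicates 1 to 5. Replicate 5 was the highest in every fraction, so the fractions overlapped, but within each number both CD90+ arrays lay below the CD90-/CD133- array. MCL1 was 1.24-fold lower in CD90+/CD133+ cells (log2 fold change -0.31, SE 0.064, adjusted p = 0.0103). It was 1.25-fold lower in CD90+/CD133- cells (log2 fold change -0.32, SE 0.086, adjusted p = 0.0304). Without the block neither was called (adjusted p = 0.268 and 0.375), and the call in CD90+/CD133- cells was also lost without replicate 2, 3 or 4.

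The 6 probe sets of MCL1 fell into different patterns. The probe set 200798_x_at, whose suffix marks probes that may cross-hybridize, had log2 fold changes of -0.41 in CD90+/CD133+ cells (called, but not without the block or without replicate 2 or 4) and -0.30 in CD90+/CD133- cells (not called). The dimmer 214057_at and 214056_at were lower in CD90+/CD133+ cells. For 214057_at the arrays read 78.2, 50.5, 65.6, 56.6 and 55.8 in CD90+/CD133+ cells, 115, 65, 90.4, 70 and 90.8 in CD90+/CD133- cells and 92.6, 73.3, 88, 61.9 and 90 in CD90-/CD133- cells. It was called against CD90-/CD133- cells (log2 fold change -0.40, SE 0.090, adjusted p = 0.0134) and against CD90+/CD133- cells (log2 fold change -0.48, SE 0.072, adjusted p = 0.0321). For 214056_at the arrays read 126, 44.8, 43.4, 53.1 and 38.3 in CD90+/CD133+ cells, 185, 71.3, 82.7, 70.9 and 65.9 in CD90+/CD133- cells and 115, 74, 94.3, 79.6 and 62.7 in CD90-/CD133- cells.

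Replicate 1 was the highest array of 214056_at in all 3 fractions, and in both CD90+ fractions it stood far above the rest. This probe set was called as well, with log2 fold changes of -0.60 against CD90-/CD133- cells (adjusted p = 0.0289) and -0.67 against CD90+/CD133- cells (adjusted p = 0.0278, lower in 5 of 5 pairs). In CD90+/CD133- against CD90-/CD133- cells 214057_at and 214056_at were at 0.07 and 0.07 and not called. None of these calls stood without the block. The calls between the CD90+ fractions were also lost with any 1 replicate left out, with adjusted p of 0.0584 to 0.103 for 214057_at and 0.0559 to 0.0902 for 214056_at, and the calls against CD90-/CD133- cells were lost without replicate 2 for 214057_at and without replicate 2, 3, 4 or 5 for 214056_at. The remaining 200796_s_at and 227175_at lay at 17.3 to 39.0 and were not called in any comparison. RefSeq promoter letters of MCL1 were not used here.

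**Figure D2:**
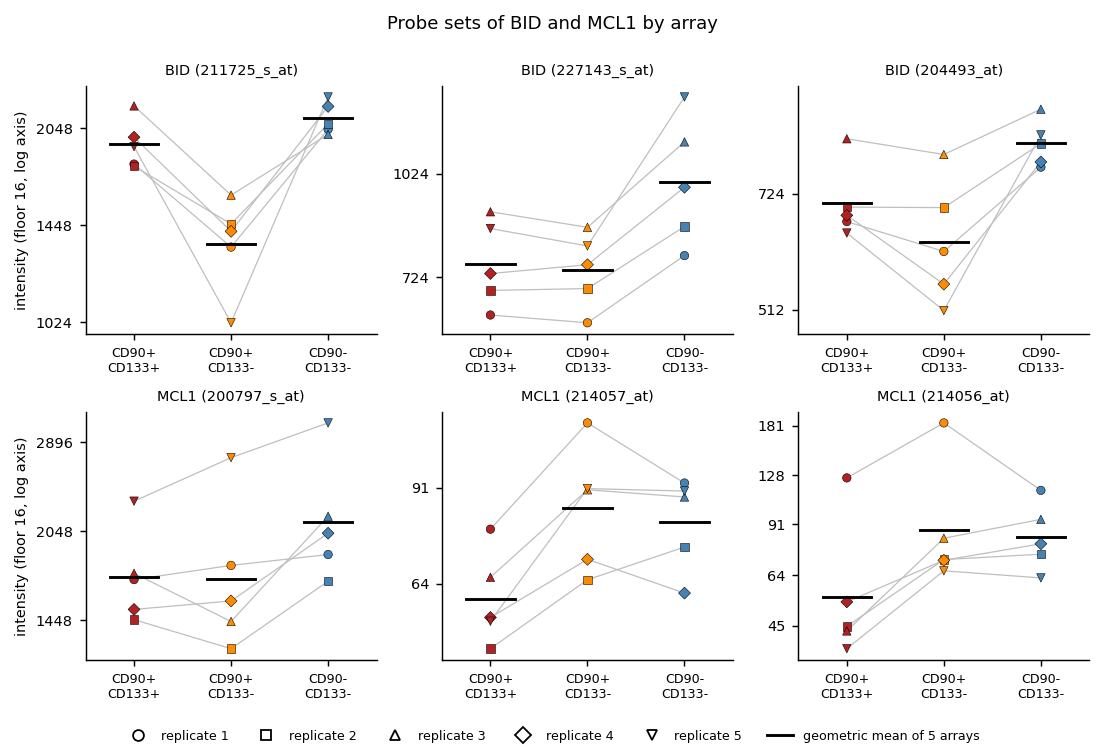
Intensity (log axis, values under 16 set to 16) of the 3 probe sets of BID and of 3 of the 6 probe sets of MCL1 on each array, with fractions in the order CD90+/CD133+, CD90+/CD133- and CD90-/CD133-, symbols for replicate numbers and bars for geometric means. BID 211725_s_at is low in CD90+/CD133- cells only, while 227143_s_at is low in both CD90+ fractions, and MCL1 214056_at and 214057_at are low in CD90+/CD133+ cells.

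BCL2 itself was dim. Its brightest probe set, 207004_at, read 50.8, 52.1, 48.9, 54.8 and 50.5 in CD90+/CD133+ cells, 60.9, 56.8, 55.7, 52.4 and 46.7 in CD90+/CD133- cells and 53.8, 40.3, 47.7, 45.9 and 35.9 in CD90-/CD133- cells. It was called in CD90+/CD133- cells (log2 fold change 0.29, SE 0.069, adjusted p = 0.0191, higher in 5 of 5 pairs) but not in CD90+/CD133+ cells (0.22, adjusted p = 0.13), and the first call was lost without the block (adjusted p = 0.108) and without replicate 2. The other 3 probe sets of BCL2 lay at 20.7 to 57.0 with log2 fold changes of -0.15 to 0.20 over the 3 comparisons, none called. BCL2A1 was at the floor on 13 of the 15 arrays, and only replicate 1 of CD90+/CD133+ and of CD90+/CD133- cells, at 24.2 and 24.0, lay above it. It passed the filter through those arrays alone and was not called.

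BCL2L11, on chromosome 2, showed the largest rise among the 9 genes by their brightest probe sets. It encodes BIM, a BH3-only protein that binds all the guardians. On 225606_at the arrays of replicates 1 to 5 read 398, 511, 671, 559 and 861 in CD90+/CD133+ cells. They read 372, 634, 759.8, 672 and 806 in CD90+/CD133- cells and 248, 308, 343, 332 and 372 in CD90-/CD133- cells. Replicate 1 was the lowest and replicate 5 the highest in each fraction. The CD90+/CD133+ arrays all lay above the CD90-/CD133- arrays, whereas replicate 1 of CD90+/CD133- cells, at 371.5, met replicate 5 of CD90-/CD133- cells at 371.7.

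Against CD90-/CD133- cells BCL2L11 was 1.83-fold higher in CD90+/CD133+ cells (log2 fold change 0.87, SE 0.089, adjusted p = 0.00058) and 1.97-fold higher in CD90+/CD133- cells (log2 fold change 0.98, SE 0.094, adjusted p = 0.00062), in 5 of 5 pairs each. Both calls held without the block and with any 1 replicate left out. Of its 7 probe sets, 6 were called higher in both comparisons. Their log2 fold changes were 0.45 to 0.87 in CD90+/CD133+ cells and 0.40 to 0.98 in CD90+/CD133- cells. The exception was 1553088_a_at, which read 143, 141, 115, 139.6 and 118 in CD90+/CD133+ cells, 93.8, 129, 115, 109 and 98.8 in CD90+/CD133- cells and 110.5, 147, 90.3, 124 and 84.1 in CD90-/CD133- cells. Its log2 fold changes were 0.26 (adjusted p = 0.0551) and -0.0049 (adjusted p = 0.981), with CD90+/CD133- and CD90-/CD133- arrays overlapping.

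The replicate numbers ordered the BCL2L11 probe sets differently. On 1555372_at replicate 1 was the lowest array of each fraction, with 68.8, 89.6, 99.7, 116 and 153 in CD90+/CD133+ cells, 77.2, 101, 125, 126 and 158 in CD90+/CD133- cells and 37.8, 64.2, 93.3, 95.4 and 83.7 in CD90-/CD133- cells. On 1553096_s_at replicate 5 was the lowest, with 204, 256, 214, 257 and 183 in CD90+/CD133+ cells, 193, 273, 192, 204 and 149 in CD90+/CD133- cells and 157, 188, 130.4, 193 and 103 in CD90-/CD133- cells. Without the block neither was called in either comparison (adjusted p = 0.249 and 0.116 for 1555372_at and 0.0515 and 0.21 for 1553096_s_at, in CD90+/CD133+ and CD90+/CD133- cells). With the block 1555372_at lost its call in CD90+/CD133+ cells without replicate 2 or 5, 1553096_s_at its call in CD90+/CD133- cells without replicate 2, and 1558143_a_at its call there without replicate 2 or 4. None of the 7 was called between the CD90+ fractions, with log2 fold changes of -0.21 to 0.27 in CD90+/CD133+ over CD90+/CD133- cells.

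The BCL2L11 promoter window was the only one of the family with GTAAACA, the FOXO-type motif, 223 bases upstream of the start at chr2:111120679-111120709 on the plus strand. The last letters of the motif run into a GCGTG match on the other strand, and GCGTG occurs there once more 146 bases upstream.
BCL2L11: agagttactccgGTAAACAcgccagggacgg
FOXO factors are known activators of BIM transcription. FOXO1 was lower in CD90+ cells, at -0.83 (log2, adjusted p = 0.00073) in CD90+/CD133+ cells and -0.47 (adjusted p = 0.0228) in CD90+/CD133- cells. FOXO3, named after its value was seen, was lower in CD90+/CD133+ cells (-0.35, adjusted p = 0.00334) and was not called in CD90+/CD133- cells (-0.0075, adjusted p = 0.96). The motif is a match of letters, and its part in these intensities was not tested.

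PMAIP1, on chromosome 18, encodes NOXA and was lower in CD90+ cells. On 204285_s_at the arrays of replicates 1 to 5 read 1649, 1157, 1082, 1173 and 1344 in CD90+/CD133+ cells, 2245, 1574, 1752, 1202 and 2251 in CD90+/CD133- cells and 2600.4, 2318, 2246, 2192 and 3347 in CD90-/CD133- cells. All CD90+/CD133+ arrays lay below all CD90-/CD133- arrays, and within each number the order was CD90+/CD133+ lowest, then CD90+/CD133-, then CD90-/CD133-. PMAIP1 was 1.98-fold lower in CD90+/CD133+ cells (log2 fold change -0.99, SE 0.094, adjusted p = 0.00045), a call that held without the block. In CD90+/CD133- cells it was 1.43-fold lower (log2 fold change -0.51, SE 0.099, adjusted p = 0.00879), which was not called without the block (adjusted p = 0.0832).

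The second probe set, 204286_s_at, read 773, 517, 396, 425 and 521 in CD90+/CD133+ cells, 803, 646, 683, 555 and 936 in CD90+/CD133- cells and 966, 833, 777, 877 and 1016 in CD90-/CD133- cells. It gave the same order in each number, with log2 fold changes of -0.80 (adjusted p = 0.0021) in CD90+/CD133+ cells and -0.32 (adjusted p = 0.0345) in CD90+/CD133- cells. The probe set was not called in CD90+/CD133- cells without the block (adjusted p = 0.146) or without replicate 1, 2, 3 or 4. Between the CD90+ fractions PMAIP1 was lower in CD90+/CD133+ cells in 5 of 5 pairs on both probe sets, at -0.47 (SE 0.107) and -0.48 (SE 0.124), but with adjusted p of 0.0574 and 0.0731 neither was called. Its promoter window held GCGTG in both places shown, 183 and 25 bases upstream of the start (chr18:59899801-59899829 and chr18:59899959-59899987, plus strand).
PMAIP1, 183 bases upstream: cgcgggtcgggaGCGTGtccgggcaggtc
PMAIP1, 25 bases upstream: cactggacaaaaGCGTGgtctctggcgcg

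BID, on chromosome 22, encodes the BH3-only protein that caspase-8 cleaves to link death receptors with mitochondria. Its brightest probe set, 211725_s_at, read 1802, 1788, 2218, 1983 and 1918 in CD90+/CD133+ cells, 1339, 1454, 1612, 1417 and 1022 in CD90+/CD133- cells and 2039.6, 2080.2, 2003, 2213 and 2289 in CD90-/CD133- cells. The CD90+/CD133- arrays lay below all others, with no overlap. BID in CD90+/CD133- cells was 1.57-fold lower relative to CD90-/CD133- cells (log2 fold change -0.65, SE 0.120, adjusted p = 0.00743), and this call held without the block. In CD90+/CD133+ against CD90-/CD133- cells the log2 fold change was -0.13 (SE 0.072, adjusted p = 0.214), not called. Between the CD90+ fractions BID was 1.43-fold higher on the CD90+/CD133+ side (log2 fold change 0.52, SE 0.092, adjusted p = 0.038). Among the 30 probe sets this was the only rise called between the CD90+ fractions. The call was lost without the block (adjusted p = 0.101) and with any 1 replicate left out (adjusted p 0.058 to 0.119).

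The other probe sets of BID were lower in both CD90+ fractions. On 227143_s_at the arrays read 639, 693, 901, 734 and 852 in CD90+/CD133+ cells, 622, 698, 856, 755 and 804 in CD90+/CD133- cells and 779, 858, 1138, 978 and 1322 in CD90-/CD133- cells, with log2 fold changes of -0.40 (adjusted p = 0.0044) and -0.42 (adjusted p = 0.00687) against CD90-/CD133- cells. On 204493_at they were -0.26 (adjusted p = 0.0148) and -0.42 (adjusted p = 0.0139). Each was lower in 5 of 5 pairs, and 227143_s_at was called in neither comparison without the block (adjusted p = 0.0997 in CD90+/CD133+ cells and 0.072 in CD90+/CD133- cells), while 204493_at was not called in CD90+/CD133+ cells without it (adjusted p = 0.0569). The call of 204493_at was also lost without replicate 2 in CD90+/CD133+ cells and without replicate 4 in CD90+/CD133- cells. In CD90+/CD133+ over CD90+/CD133- cells 227143_s_at and 204493_at were at 0.03 and 0.17 and not called, so only the brightest of the 3 probe sets was called between the CD90+ fractions. The CD90+/CD133- arrays, where 211725_s_at was low, also had the wider GAPDH gap (mean 0.186, against 0.050 in CD90+/CD133+ cells and 0.057 in CD90-/CD133- cells) and the higher mean ACTB gap given above, whose part in this result was not tested.

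The pore formers BAX and BAK1 were not called in any comparison. BAX 211833_s_at read 267, 302, 304, 267 and 374 in CD90+/CD133+ cells, 230.5, 279, 264, 228 and 207 in CD90+/CD133- cells and 299.7, 295, 268, 265 and 338 in CD90-/CD133- cells. It was lowest in CD90+/CD133- cells in every number. The log2 fold changes of its 2 probe sets were -0.28 and -0.32 in CD90+/CD133- against CD90-/CD133- cells (adjusted p = 0.096 and 0.0553), 0.32 and 0.31 in CD90+/CD133+ against CD90+/CD133- cells (adjusted p = 0.138 and 0.112), and 0.04 and -0.0050 in CD90+/CD133+ against CD90-/CD133- cells. The wider GAPDH and ACTB gaps of the CD90+/CD133- arrays stand beside BAX as well, and their part was not tested. BAK1 203728_at lay between 94.4 and 148 in CD90+/CD133+ cells, between 106 and 151 in CD90+/CD133- cells and between 90.6 and 139 in CD90-/CD133- cells, with log2 fold changes of -0.03 (SE 0.070) in CD90+/CD133+ cells and 0.06 (SE 0.094) in CD90+/CD133- cells.

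**Figure D3:**
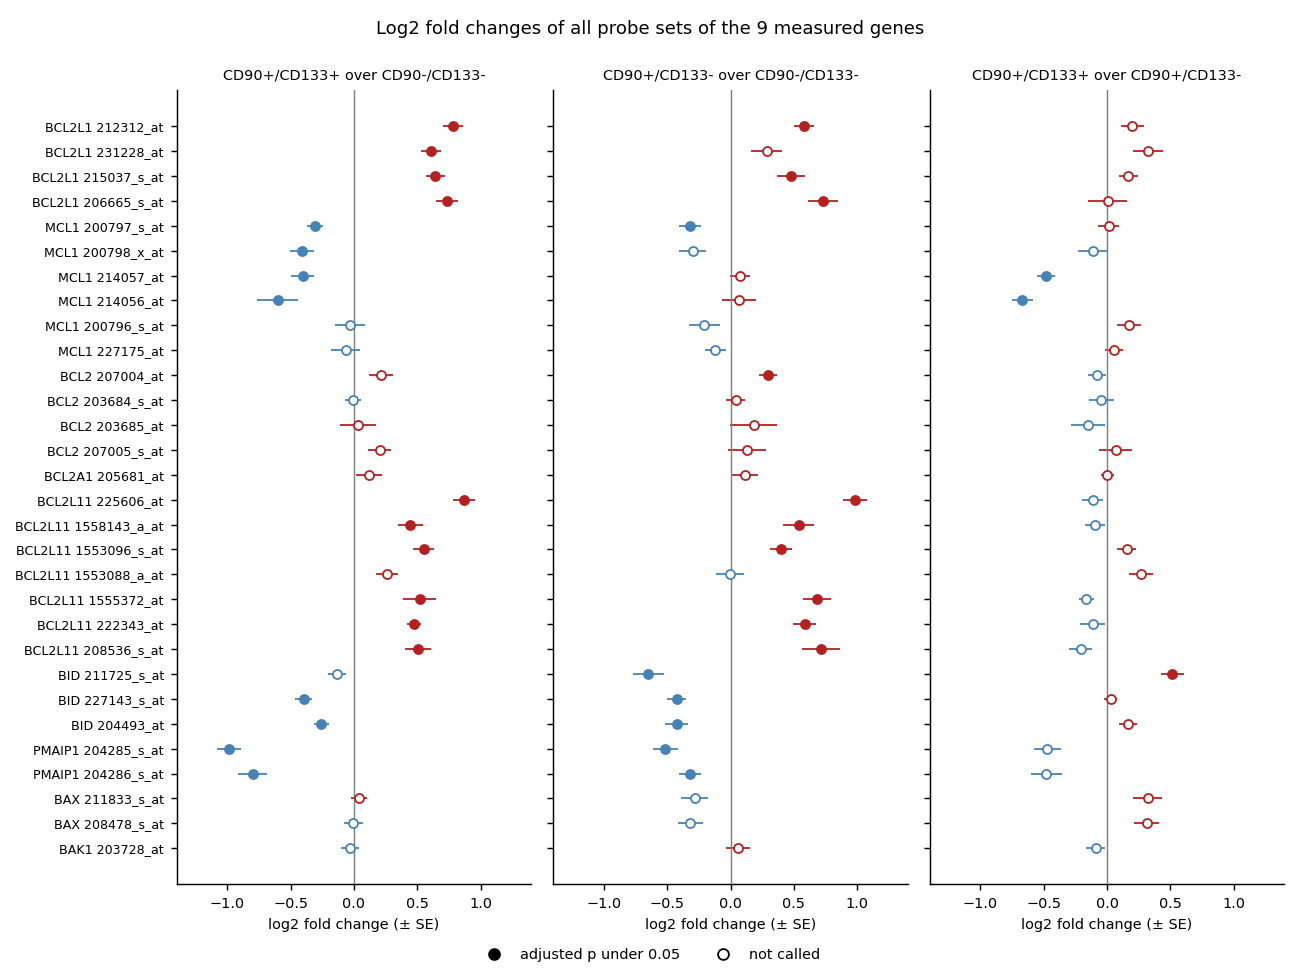
Log2 fold change (point) and SE (bar) of each of the 30 probe sets for CD90+/CD133+ over CD90-/CD133-, CD90+/CD133- over CD90-/CD133- and CD90+/CD133+ over CD90+/CD133- cells, with red above 0, blue below 0 and filled points at an adjusted p under 0.05. Called are 18, 16 and 3 probe sets, and in the comparisons with CD90-/CD133- cells the called probe sets of BCL2L1 and BCL2L11 lie to the right of 0 and those of MCL1, BID and PMAIP1 to the left.

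Between CD90+/CD133+ and CD90+/CD133- cells, then, the 3 calls were BID 211725_s_at (higher) and MCL1 214057_at and 214056_at (lower). The limma fit without the block called 0 of the 30 probe sets there, with 8 at an unadjusted p under 0.05 (14.4% of all probe sets). The methods' t-test, which the methods name but not for the arrays, called 0, with 7 at an unadjusted p under 0.05 (12.9% of all). With any 1 replicate left out the count was also 0, with 7 to 13 at an unadjusted p under 0.05 (19.9% to 25.1% of all). Over all probe sets 0 to 95 were called then, so the count of 0 is no result about the family. Over all probe sets this comparison gave 1760 calls, and 82 without the block.

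Where each gene lies was set beside its own value through the 30 nearest measured genes on its chromosome, with a mean intensity of at least 64. For PMAIP1 the median log2 fold change of these neighbours was -0.39 in CD90+/CD133+ cells and -0.21 in CD90+/CD133- cells against CD90-/CD133- cells, where PMAIP1 had -0.99 and -0.51. BCL2, on the same chromosome 18 with the same neighbour medians, had 0.22 and 0.29. For BCL2L11 the neighbours were at 0.15 and 0.24, for BID at -0.13 and -0.27, and for MCL1 at -0.13 on both sides. For BCL2L1 they were at 0.16 in CD90+/CD133+ cells and -0.06 in CD90+/CD133- cells, beside its own 0.78 and 0.58. In the same order BAX had 0.04 and -0.28 beside neighbours at -0.15 and -0.20. BAK1 had -0.03 and 0.06 beside 0.17 and 0.09, and BCL2A1 0.12 and 0.12 beside 0.16 and 0.03. The neighbours spanned 1.5 Mb for MCL1 and up to 17.5 Mb for PMAIP1. Over all 9979 genes of that brightness the medians were -0.0042 and -0.03, and the neighbour medians of PMAIP1, BID, BCL2L11 and MCL1 had the sign of those genes' own values. The part of position in their values was not tested.

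As a description of likeness, the genes whose brightest probe sets followed each member most closely over the 15 arrays were listed by Pearson's r on the log2 scale. For BCL2L11 these were KIAA1217 (0.974), NAP1L1 (0.970) and ABCA4 (0.967). For BCL2L1 they were RAMAC (0.961), HYLS1 (0.957) and NEDD1 (0.948), for PMAIP1 C6orf120 (0.941), EPC2 (0.933) and SLC39A6 (0.929, also on chromosome 18), and for BID PAFAH1B3 (0.966), POLR2L (0.935) and RER1 (0.922). For MCL1 they were CCNL1 (0.951), IGF2R (0.925) and GRIPAP1 (0.922), and for BCL2 TMTC2 (0.901), PEG10 (0.878) and NSD1 (0.869). The arrays share fractions and replicate numbers, so part of each value is common to many genes. Within fractions the r of BCL2L11 with KIAA1217 was 0.935 and that of MCL1 with CCNL1 0.954, while that of BCL2L1 with RAMAC was 0.690.

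Further genes of the pathway were read from their brightest probe sets, with 63 of 70 listed genes measured and the other 7 not analysed here. In CD90+/CD133+ cells 15 were higher and 17 lower relative to CD90-/CD133- cells, and in CD90+/CD133- cells 13 were higher and 13 lower, with 39.4% and 36.1% of all genes called. These are 50.8% and 41.3% of the 63 genes. With only bright probe sets fitted (mean intensity at least 64), 57.2% and 54.2% of all genes tested were called. The share over all genes thus depends on brightness. The lists were chosen with earlier results of these data known, so the shares are a description and no test. Without the block 19 and 18 of the 63 were called, where 26.3% and 24.8% of all genes were.

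Of the 12 other genes of the BCL2 family, 4 were lower and 2 higher in CD90+/CD133+ cells and 4 lower and none higher in CD90+/CD133- cells. Lower in both were the BH3-only genes BIK, BAD and BMF and the pore former BOK. The list is mostly of pro-apoptotic genes, and HRK, another BH3-only gene, was at 0.06 in CD90+/CD133+ cells and 0.40 in CD90+/CD133- cells and not called. BIK read 869.9, 1205, 1431, 954 and 1343 in CD90+/CD133+ cells, 699, 1019.9, 1049.9, 781 and 1072 in CD90+/CD133- cells and 1715, 2100.1, 1713, 1789.7 and 2182 in CD90-/CD133- cells. Its CD90-/CD133- arrays lay above all CD90+ arrays, with log2 fold changes of -0.73 (adjusted p = 0.00254) in CD90+/CD133+ cells and -1.05 (adjusted p = 0.00047) in CD90+/CD133- cells, and it was 0.32 (adjusted p = 0.0349) higher in CD90+/CD133+ cells relative to CD90+/CD133- cells. BAD was at -0.36 and -0.53, BOK at -0.61 and -0.53 and BMF at -0.71 and -0.39 in CD90+/CD133+ and CD90+/CD133- cells. HRK, BNIP3 and BCL2L14 were named after their values were seen. BNIP3, which acts in mitophagy and is a known hypoxia target, was higher in CD90+/CD133+ cells (0.49, adjusted p = 0.00532) and not called in CD90+/CD133- cells (0.30, adjusted p = 0.0989). The dim BCL2L14 was higher in CD90+/CD133+ cells (0.23, adjusted p = 0.0412) and not called in CD90+/CD133- cells (0.07).

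Among 13 measured genes of mitochondrial release and caspases, 3 were higher and 3 lower in CD90+/CD133+ cells and 2 higher and 3 lower in CD90+/CD133- cells. DIABLO, whose protein SMAC leaves mitochondria and blocks inhibitors of apoptosis, was the highest at 1.38 and 1.00, with no overlap in either comparison. VDAC2, a channel that holds BAK1, was at 0.41 and 0.30, while DFFA, the inhibitor of the apoptotic nuclease, was at -0.50 and -0.39 and AIFM1 at -0.21 and -0.34. Of 6 inhibitor of apoptosis genes, BIRC6 (0.32 and 0.65) and BIRC2 (0.34 and 0.38) were higher in both, and XIAP, named after its value was seen, was lower in CD90+/CD133+ cells (-0.53) but not called in CD90+/CD133- cells (-0.37, adjusted p = 0.0587).

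Of 10 death receptor genes, 3 were higher in both CD90+ fractions, and 2 were lower in CD90+/CD133+ cells and 3 in CD90+/CD133- cells. CASP8, which encodes the caspase that cleaves BID, was at 0.89 in CD90+/CD133+ cells and 0.95 in CD90+/CD133- cells without overlap. TNFSF10, which encodes the ligand TRAIL, was at 0.65 and 0.95, but its fractions overlapped widely. It read 60.9 to 997 on CD90+/CD133+, 65.1 to 955 on CD90+/CD133- and 26.8 to 734 on CD90-/CD133- arrays, with replicate 1 lowest in each. The receptor TNFRSF1A was at -0.63 and -0.61, and its adaptor TRADD at -0.43 and -0.57. Of 11 regulators of family members, USP9X, a deubiquitinase that stabilizes MCL-1, was at 0.45 and 0.73, and the mitochondrial ubiquitin ligase MARCHF5 at 0.97 and 0.72. BTRC was called in CD90+/CD133- cells only (0.23 in CD90+/CD133+ cells and 0.48 in CD90+/CD133- cells). Among the regulators 2 were higher and 4 lower in CD90+/CD133+ cells, and 3 were higher and 2 lower in CD90+/CD133- cells.

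Among 11 measured genes of the DNA damage and stress response, listed as p53 target genes, 3 were higher and 3 lower in CD90+/CD133+ cells. In CD90+/CD133- cells 3 were higher and 1 lower. ZMAT3 was at 0.29 and 0.80, MDM2 at 0.34 and 0.35, SESN1 at 0.29 and 0.27 and TIGAR at -0.56 and -0.48 in CD90+/CD133+ and CD90+/CD133- cells. GADD45A and CDKN1A, named after their values were seen, were also called lower in CD90+/CD133+ cells but not in CD90+/CD133- cells. Their geometric means were 1513 and 129 in CD90+/CD133+ cells and 2241 and 177 in CD90-/CD133- cells. Between the CD90+ fractions 3 of the 63 genes were called, where 3.79% of all genes were: BIK was higher and BIRC6 (-0.33) and FOXO1 (-0.36) were lower in CD90+/CD133+ cells. Without the block limma called 0 of them, with 12 at an unadjusted p under 0.05, and the methods' t-test called 0, likewise with 12. Of all genes 0.142% and 0.0619% were called in these fits, and 14.4% and 12.9% of all probe sets had an unadjusted p under 0.05.

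**Figure D4:**
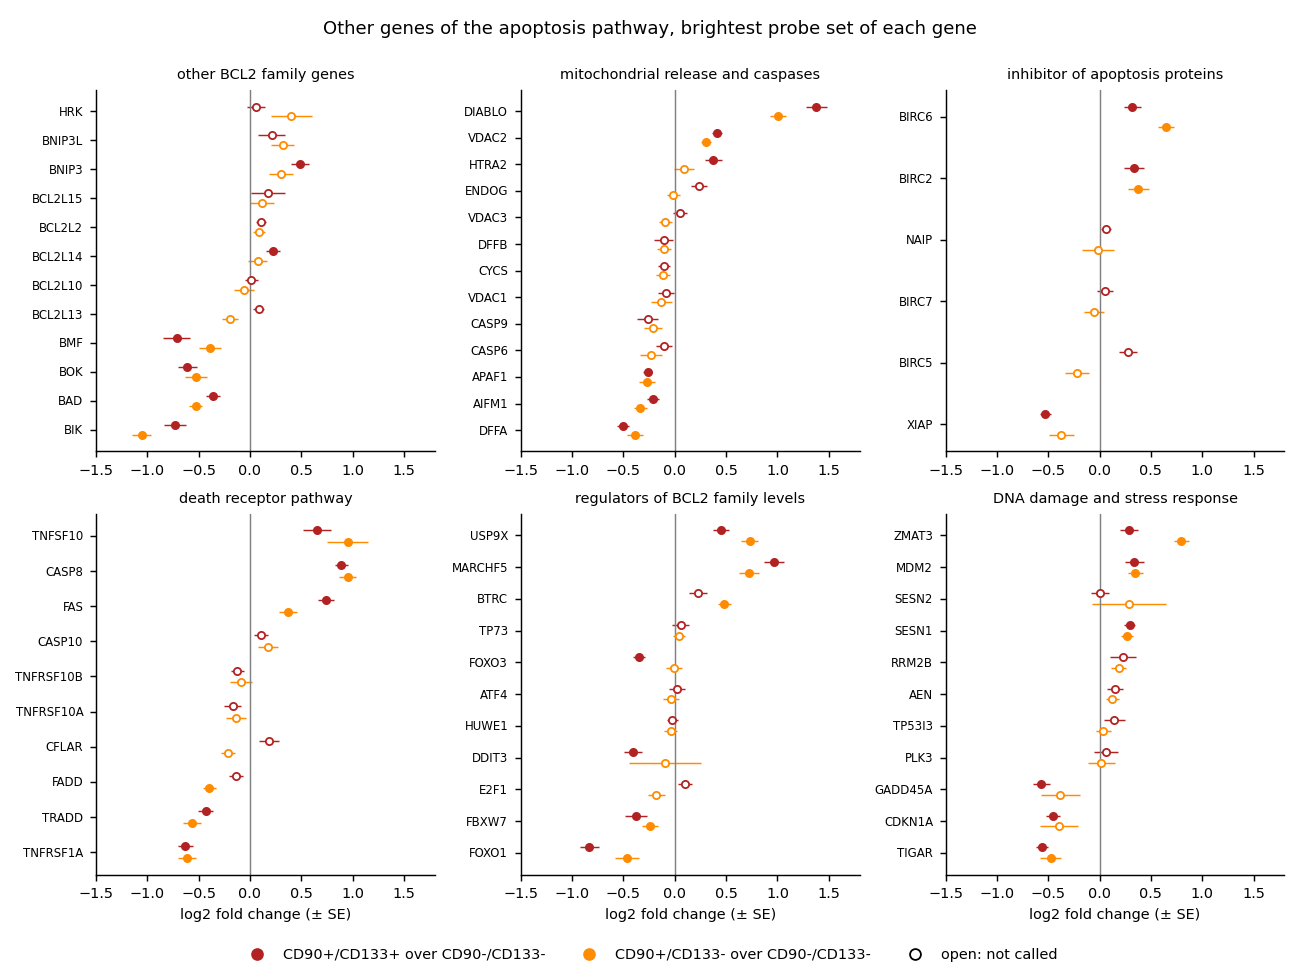
Log2 fold change (point) and SE (bar) of the brightest probe set of each measured gene in 6 lists, for CD90+/CD133+ over CD90-/CD133- cells (red) and CD90+/CD133- over CD90-/CD133- cells (orange), with open points where the adjusted p was 0.05 or more. BIK, BAD, BOK and BMF lie below 0 and DIABLO, CASP8, USP9X and MARCHF5 above 0 in both comparisons.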

How the data were processed

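Total RNA of sorted PEO1 fractions was labelled and hybridised to Affymetrix HG-U133 Plus 2.0 arrays, 5 per fraction. The deposited intensity values were normalized by the authors with a cross-correlation method and have a lowest value of 5, and the summarisation software is not given in the sources used here. Values under 16 were set to 16 and log2 transformed. Of 54675 probe sets, 62 controls were left out, and 41091 of the rest are annotated to 1 gene, 1801 to several and 11777 to none listed. Per-array values were compared between 2 fractions at a time with the lmFit and eBayes functions of limma 3.58.1 (R 4.3.3), with Benjamini-Hochberg adjustment over all probe sets above 16 on at least 1 array compared.

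The replicate number in the labels entered as a block. Deviations from the group means correlated in every pair of arrays that share a number (r 0.19 to 0.84). Pairs of different numbers had r of -0.65 to 0.36, so the ranges overlap. Replicate 3 of CD90+/CD133+ cells had r 0.19 with replicate 3 and 0.23 with replicate 5 of CD90-/CD133- cells. The replicates 4 and 5 share a label code, which was tried as the block instead. No 2 arrays held identical values. A gene was described by its brightest probe set, the other probe sets were given where called or of opposite sign, and of each pathway list up to 4 called genes with the largest change in CD90+/CD133- cells were named. The members and lists were chosen with earlier results of these data known. The fit was tested on simulated data. The alternatives were no block, the label code as block, all fractions in one fit, quantile or median normalization, floors of 5 and 64, no filter or only bright probe sets, trended or robust eBayes, only probe sets of 1 gene, the methods' t-test, a 1.5-fold ratio of means, the mean of a gene's probe sets and each replicate left out. The t-test was unpaired on log2 values, a kind of test the methods name but not for the arrays. For the arrays they name only the 1.5-fold threshold. For an array, the number of arrays limits the precision. Promoter letters are from RefSeq (GRCh38.p14).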

Additional observations from a re-analysis of the deposited data

Results flagged for a closer look

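In 69 groups of 5 arrays checked over the probe sets of the family, 7 held a value far from the other 4, and chance marks about 1 in 20 groups. For BCL2L1 212312_at, replicate 5 of CD90-/CD133- cells was low at 259.4, with the others at 308.7 to 330.1, and for 215037_s_at replicate 1 of CD90+/CD133- cells was high at 75.07, with the others at 44.38 to 48.98. MCL1 214056_at was high in replicate 1 of CD90+/CD133+ cells, at 125.9 against 38.32 to 53.08, and in replicate 1 of CD90+/CD133- cells, at 184.6 against 65.91 to 82.69. BCL2A1 205681_at lay above the floor of 16 only in replicate 1 of CD90+/CD133+ cells, at 24.24, and of CD90+/CD133- cells, at 23.97. For BID 204493_at, replicate 3 of CD90+/CD133+ cells was high at 853.6, with the others at 643.8 to 695.7. The 7 cases lie on 4 arrays. For BCL2A1 the other 4 values of each group were set to 16, which fixes the gap.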

How the results depend on the processing

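The number of probe sets of the family called, 16 in CD90+/CD133- and 18 in CD90+/CD133+ against CD90-/CD133- cells, depended on the test. In CD90+/CD133- cells it was 8 with no replicate block (20.6% of all probe sets) and 9 with no filter (15.5% of all). It was 5 by the methods' t-test (17.2% of all, a share near that of the family) and 7 past a 1.5-fold ratio of means (14.7% of all). With 1 replicate left out it was 11 to 17 (22.9% to 30.4% of all). For the 63 pathway genes (26 called) it was 17 with no filter (21.6% of all genes) and 15 by the methods' t-test (21.2% of all genes). For these genes it was 9 past 1.5-fold and 19 to 28 with 1 replicate left out (26.9% to 35.2% of all genes). In CD90+/CD133+ cells 10 probe sets of the family were called with no replicate block (21.5% of all) and 10 by the methods' t-test (18.3% of all). Past 1.5-fold were 7 (13.9% of all), and 14 to 18 were called with 1 replicate left out (26.6% to 31.7% of all). Of the pathway genes (32 called), 19 were called with no replicate block (26.3% of all genes) and 17 by the methods' t-test (22.8%). Past 1.5-fold were 9, and 25 to 31 were called with 1 replicate left out (31.2% to 36.4% of all genes).

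Between the CD90+ fractions 3 probe sets of the family and 3 pathway genes were called. With no replicate block, with the label code as block, with no filter and by the methods' t-test both counts were 0. In these settings 8, 10, 9 and 7 probe sets and 12, 17, 18 and 12 genes had an unadjusted p under 0.05. Over all probe sets 0.209%, 0.196%, 0.0348% and 0.074% were called, and 14.4%, 19.2%, 16.2% and 12.9% had an unadjusted p under 0.05. With so few calls over all, the counts of 0 are no result about the family or the pathway genes. With 1 replicate left out limma called 0 to 0, with 7 to 13 probe sets and 15 to 21 genes at an unadjusted p under 0.05, and over all probe sets 0 to 95 were called. All 3 fractions in 1 fit gave 5 probe sets and 8 genes, where 8.86% of all probe sets and 9.04% of all genes were called. A floor of 5 gave 5 and 6 (8.78% and 7.62% of all), and only bright probe sets gave 5 and 11 (16.8% and 15.1% of all). The 1.5-fold ratio gave 1 and 1 (1.67% of all probe sets), while a floor of 64 gave 1 probe set (7.86% of all). Over all probe sets the split of 511 higher and 1249 lower became 930 and 1123 with median centring, 524 and 810 with quantile normalization, 748 and 966 with a floor of 64 and 1382 and 1775 with only bright probe sets. The cause of these differences was not tested.

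Of 1578 recomputed values of single probe sets, 1433 kept their side of the threshold, 117 lost a call, 28 gained one and 0 reversed. Direction was compared only where a value was called, so values that were not called may have changed sign. Of the 37 calls, 10 were kept in every alternative, 22 with any 1 replicate left out and 18 without the block. Leaving out replicate 2 ended 14 calls and replicate 4 ended 10.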
